A study of Mus musculus with 6 samples.

Results

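A set of 7 genes commonly used to mark homeostatic microglia was followed in microglia of mice deleted for Mir137: Olfml3, Sparc, Crybb1, Serpine2, Golm1, Slc2a5 and Bin1. They were chosen by name, as signature genes whose products are secreted, enzymatic or intracellular, and make up 7 of the 17459 rows of the deposited count table. All 7 passed the filter on low counts, as did 13490 rows in all. All mice were male, of the strain C57BL/6J and 8 weeks old. The cKO group (3 libraries) was Mir137loxP/loxP;Tmem119-CreERT2. The cWT group (3 libraries) was Mir137+/+;Tmem119-CreERT2, so both groups carried the Cre, and mice of both were given tamoxifen on 7 days at 7–8 weeks of age. The Cre is active in cells that express Tmem119, itself a homeostatic microglial gene. The labels state 4 mice for the isolation of microglia and do not say how mice fall into replicates, so p-values measure the spread between these libraries, which may be technical.

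Microglia, the brain's own macrophages, keep in the resting adult brain a characteristic expression programme, usually called homeostatic, which depends on signals from the brain, TGF-beta among them, and is reduced in many disease states. Besides surface receptors, that programme includes secreted matrix proteins and protease inhibitors, a sugar transporter, a Golgi protein and a protein that shapes membranes, the kinds of product described here. MicroRNAs such as miR-137 pair through their seed, bases 2 to 8, with sites in messenger RNAs, mostly in 3′ UTRs. The study asked how loss of miR-137 alters transcription in adult microglia.

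The sequences that link the deleted microRNA to these genes are the mature miR-137-3p and the 2 matches to its seed among the 7 genes. The capitals mark the seed in the microRNA and the complementary 7 bases, AGCAATA, in the transcripts. The microRNA is encoded on the plus strand of chromosome 3 (chr3:118433901-118433923, GRCm38, sequence from RefSeq), and the sites are read from GENCODE transcripts, both on the minus strand.
mmu-miR-137-3p: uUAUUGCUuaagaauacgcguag
Olfml3 site: gatgtatgtaAGCAATAtcagtaaa
Golm1 site: caaatgaactAGCAATAgtcaggcc
The site of Olfml3 covers bases 2071 to 2077 of a 3′ UTR of 4178 bases (chr3:103733766-103733772). It lies 1628 bases beyond the end that RefSeq gives for Olfml3, so it is outside the RefSeq form. In GENCODE it is in the 3′ UTR of Olfml3-201. The spans of Olfml3-202 and Olfml3-203, which are not annotated as protein-coding, also cover its position. The site of Golm1 covers bases 1818 to 1824 of a 3′ UTR of 2666 bases (chr13:59635468-59635474), where the annotation also places an exon of the neighbouring gene Naa35. Neither match is followed by the A of the stricter site. The longest annotated 3′ UTRs of the other 5 genes (Sparc, Crybb1, Serpine2, Slc2a5 and Bin1) held no AGCAATA, and 10.2% of 12603 tested genes with a 3′ UTR held at least 1. A match of 7 letters is a description of the sequence and says nothing by itself about binding.

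The deletion could not be checked from the level of Mir137, which the authors' deposited table gives with a base mean of 0. Libraries held 12068698 to 15212806 counts in cKO and 16503817 to 17482042 in cWT. TMM scaling factors were 0.852 to 0.900 in cKO and 1.13 to 1.17 in cWT, and the groups did not overlap in depth or in scaling factor. In the edgeR quasi-likelihood test, 72.1% of all tested genes were called at an adjusted p under 0.05, 35.6% higher and 36.5% lower in cKO, so a call by itself is the commoner outcome in these data. The log2 fold change fell with annotated transcript length (Spearman correlation -0.72 across 12983 genes, which are not independent replicates), with medians of 1.57 in the shortest and -1.45 in the longest of 10 equal groups of genes by length. Each member is therefore given beside genes of its own length, and also with offsets, per-library curves fitted across genes that take out the trend with length and GC content. With the offsets 56.3% of genes were called.

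Of the 7 genes, 2 rose in cKO (Crybb1 and Serpine2), 1 fell (Olfml3) and 4 were not called (Sparc, Golm1, Slc2a5 and Bin1). Of all tested genes, 35.6% were called higher and 36.5% lower. Without cKO replicate 3 Slc2a5 was also called lower, which made 2, where 4875 of 13784 tested genes were lower. The median log2 fold change was 0.10 over the 7 and -0.02 over all tested genes. With the offsets 3 were called higher (Crybb1, Serpine2 and Golm1), where 29.6% of all genes were, and 1 lower (Olfml3), where 26.6% were. In bulk samples, fewer cells of a type and less RNA per cell cannot be told apart.

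**Figure D1:**
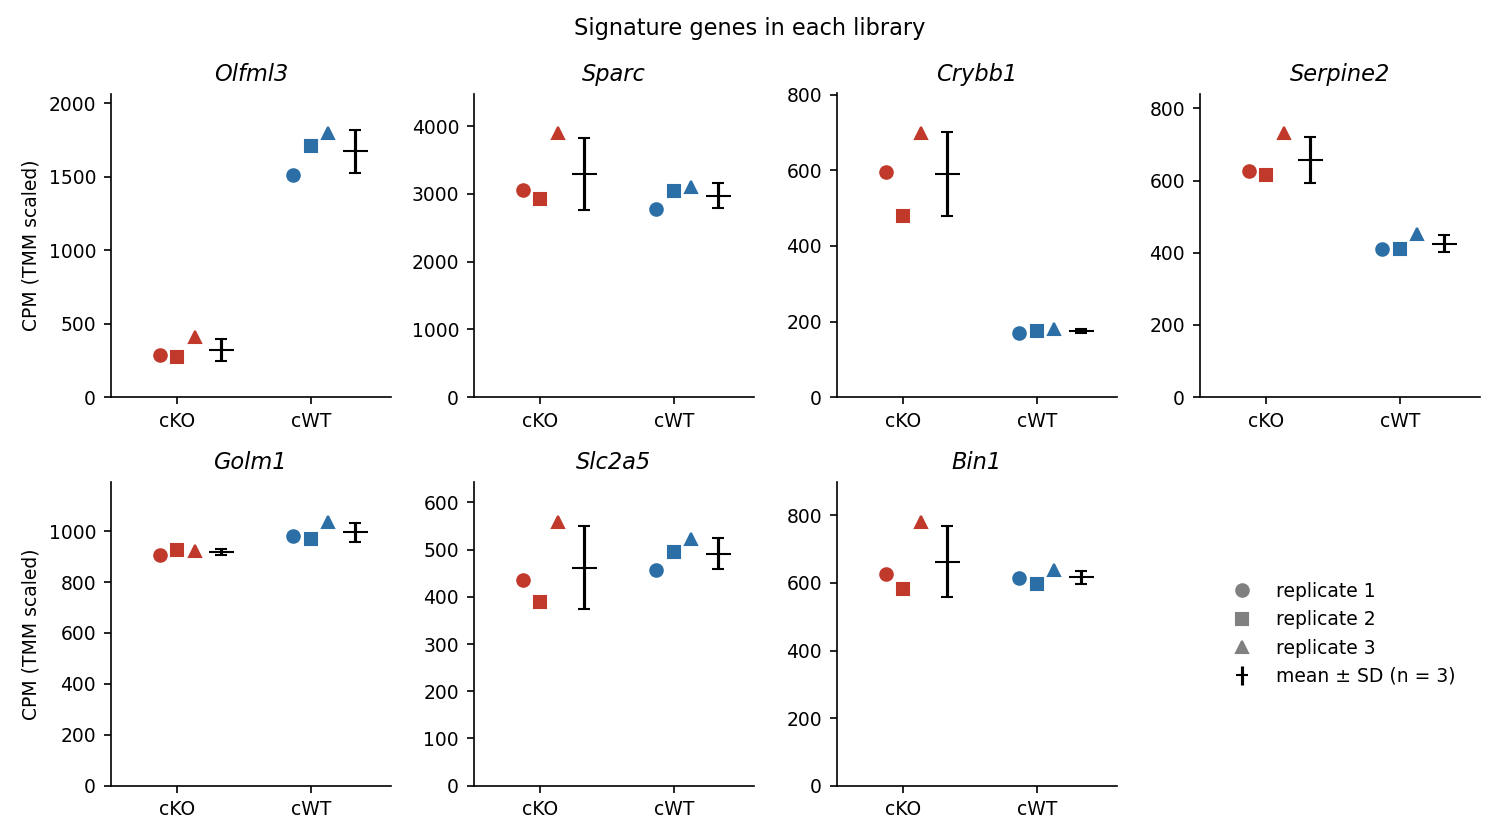
CPM with TMM scaling of each gene in each library, with cKO (red) left of cWT (blue), 1 symbol per replicate number and the mean ± SD (n = 3) beside them; each panel starts at 0 and has its own scale. Olfml3 lies between 272 and 410 CPM in cKO, below all cWT libraries, Crybb1 between 478 and 698, above all cWT libraries, and the triangle, cKO replicate 3, is the highest cKO library in every panel except Golm1.

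Olfml3 encodes a secreted glycoprotein with an olfactomedin domain and is among the transcripts best known for their restriction to microglia within the brain. It had 289, 272 and 410 CPM in the cKO libraries, against 1508, 1709 and 1796 CPM in the cWT libraries. All cKO libraries were below all cWT libraries, as was the case in one direction or the other for 74.6% of all tested genes. The means were 323 ± 75.4 CPM in cKO and 1671 ± 147 CPM in cWT (SD, n = 3 each). Olfml3 was thus 5.16-fold lower in cKO (log2 fold change -2.37, SE 0.14, adjusted p = 8.6e-11). Per kilobase of transcript it ranked 1201 to 1638 among 16753 genes in the cKO libraries and 142 to 184 in the cWT libraries. A lower rank in cKO was not particular to Olfml3, since the genes that were not called also ranked lower there. Sparc ranked 54 to 90 in cKO and 23 to 26 in cWT, and Bin1 247 to 322 and 158 to 171. For Golm1 the ranks were 378 to 404 and 178 to 203, and for Slc2a5 520 to 697 and 303 to 353. Serpine2, called higher, ranked 270 to 338 in cKO and 245 to 266 in cWT, and only Crybb1 of the set ranked higher in cKO.

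The value of Olfml3 stood below that of most genes of like length. Genes of 4923 to 6453 bases had a median log2 fold change of -0.99, and 2.7% of them lay below Olfml3. With the offsets its log2 fold change was -1.28 (adjusted p = 2.8e-05). GENCODE gives Olfml3 (chromosome 3, 103722222 to 103738001, minus strand) a transcript of 5465 bases, of which 3729 lie beyond its RefSeq end at 103735394. If the length is cut to the RefSeq extent of 1736 bases, the offset value becomes -3.10 (adjusted p = 2.1e-10), a setting chosen after seeing the data. The 1299 genes of 1507 to 1939 bases had a median log2 fold change of 0.74. The direction was the same with either length, and which form these libraries hold was not tested. Olfml3 and Mir137 both lie on chromosome 3, and sequence linked to the loxP allele was not compared between the groups.

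Of 10 other tested genes, which encode proteins with olfactomedin domains and the ligand Bmp4, 2 were called higher and 6 lower (median -0.89). With the offsets 2 were higher and 4 lower (median -0.24). Adgrl1, a latrophilin, an adhesion receptor known mainly from neurons, had 4.12 ± 1.37 CPM in cKO and 17.5 ± 0.924 CPM in cWT, a log2 fold change of -2.08 that became -0.13 with the offsets. Myoc, the secreted protein myocilin, rose by 2.53 (SE 0.63, adjusted p = 0.0109), at low levels of 11.4 ± 5.84 CPM in cKO and 1.99 ± 1.69 CPM in cWT. The nearest gene beside Olfml3, Hipk1, a kinase gene 1813 bases beyond its start, had a log2 fold change of -1.44 (SE 0.10), and of -0.08 with the offsets.

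Sparc encodes a secreted calcium-binding glycoprotein that binds collagen and modulates how cells adhere to matrix. It is made by microglia and also by endothelial cells. It was the most abundant of the 7 genes in every library. Sparc had 3055, 2921 and 3896 CPM in the cKO libraries, against 2770, 3046 and 3106 CPM in the cWT libraries. The groups overlapped, and cKO replicate 3 was the highest of the 6 libraries. Sparc averaged 3291 ± 528 CPM in cKO and 2974 ± 179 CPM in cWT (SD, n = 3 each), and the difference was not called (log2 fold change 0.15, 95% interval -0.11 to 0.40, adjusted p = 0.29). The interval holds changes of up to 0.40 on the log2 scale, so a modest increase was not excluded with these libraries. With the offsets its value was -0.16 (adjusted p = 0.090). Genes of like length had a median of 0.28.

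Among relatives and partners of Sparc, 0 of 11 tested genes were called higher and 7 lower (median -1.23), with 1 higher and 2 lower with the offsets (median 0.00). Stab1, a scavenger receptor that takes up SPARC protein, had a log2 fold change of -1.80 with an SE of 0.10 (adjusted p = 4.7e-11), with 328 ± 25.7 CPM in cKO and 1139 ± 33.8 CPM in cWT, and had a value of 0.06 with the offsets. Spock2, a proteoglycan with a SPARC-like domain, fell by 1.93 (SE 0.16) and stood at -0.81 with the offsets. Sparcl1, the closest paralog, was not called, at 232 ± 26.1 CPM in cKO and 207 ± 26.9 CPM in cWT (log2 fold change 0.17, SE 0.11). The tested collagen genes, Col1a1, Col1a2, Col4a1 and Col4a2, were all among the 7 that fell. With the offsets none of these 4 stayed lower: Col4a1 was called higher at 0.28 (adjusted p = 0.0053), and Col4a2 (0.00), Col1a2 (-0.06) and Col1a1 (-1.24) were not called.

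Serpine2 encodes a secreted inhibitor of thrombin and plasminogen activators, also called protease nexin 1. It had 628, 615 and 732 CPM in the cKO libraries, against 412, 411 and 453 CPM in the cWT libraries. Every cKO library was above every cWT library. Serpine2 rose 1.55-fold, with means of 658 ± 64.0 CPM in cKO and 425 ± 24.2 CPM in cWT (SD, n = 3 each; log2 fold change 0.63, SE 0.10, adjusted p = 2.3e-05). Genes of like length had a median of 0.28, and with the offsets the value was 0.19 (adjusted p = 0.0453), close to the limit for a call.

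Among other serpins, their proteases and receptors, 9 of 19 tested genes were called higher and 4 lower (median 0.20). With the offsets 5 were higher and 6 lower (median 0.00). Lrp1, the endocytic receptor that clears serpin and protease complexes, fell by 3.13 in log2 terms (SE 0.11, adjusted p = 4.9e-13), with 196 ± 0.285 CPM in cKO and 1714 ± 112 CPM in cWT. Its annotated transcript is 14888 bases long, and its offset value was -0.40. Serpinb6a, an intracellular serpin, rose by 1.34 (SE 0.11, offset value 0.51).

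Crybb1 encodes a beta crystallin, a structural protein of the eye lens whose transcript is also a marker of mature microglia. It had 594, 478 and 698 CPM in the cKO libraries, against 171, 176 and 181 CPM in the cWT libraries. The groups were far apart. The means, 590 ± 110 CPM in cKO and 176 ± 5.03 CPM in cWT (SD, n = 3 each), differed 3.36-fold (log2 fold change 1.75, SE 0.12, adjusted p = 4.7e-10). Crybb1 has the shortest transcript of the 7 at 882 bases, and genes of 171 to 1219 bases had a median log2 fold change of 1.57, with 61.4% of them below Crybb1. With the offsets its value was 0.35 (SE 0.08, adjusted p = 0.0011). Among all genes it ranked 132 to 172 per kilobase in the cKO libraries and 246 to 254 in the cWT libraries.

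Its chromosomal neighbour Cryba4, the gene of a beta A crystallin, was also higher, at 108 ± 13.9 CPM in cKO and 29.6 ± 2.27 CPM in cWT (log2 fold change 1.87, SE 0.11, adjusted p = 8.7e-11), or 0.29 with the offsets. The RefSeq extents of the neighbours, introns included, overlap by 9063 bases on chromosome 5, while in GENCODE the exons of Crybb1 share no bases with another gene. Of 6 tested crystallin genes besides Crybb1, 5 were called higher and 1 lower (median 0.99), and with the offsets 4 higher and none lower (median 0.38). Crybg3, a large crystallin-like gene, fell by 1.27 (SE 0.15) and had a value of 0.46 with the offsets. Crybb3 was set aside for low counts, at 0.218 ± 0.199 CPM in cKO and 0.139 ± 0.0641 CPM in cWT, and Crybb2 was not analysed here.

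Golm1 encodes a membrane protein of the Golgi. It had 907, 927 and 922 CPM in the cKO libraries, against 980, 968 and 1037 CPM in the cWT libraries. All cKO libraries lay below all cWT libraries, by a small margin. Golm1 averaged 918 ± 10.5 CPM in cKO and 995 ± 36.9 CPM in cWT (SD, n = 3 each), and the test did not call it (log2 fold change -0.12, SE 0.10, 95% interval -0.32 to 0.09, adjusted p = 0.29). With the offsets the sign turned, to 0.29 (SE 0.07, adjusted p = 8.6e-04). Genes of 3508 to 4142 bases had a median of -0.40. In GENCODE, Golm1 (chromosome 13, minus strand) shares 1297 of its 4424 exonic bases with Naa35 on the other strand, whereas the RefSeq extents lie 197 bases apart. Naa35 rose by 0.42 (SE 0.09, offset value 0.72), with 96.2 ± 3.32 CPM in cKO and 72.1 ± 2.97 CPM in cWT. Where the GENCODE extents apply, reads of the shared bases cannot be told apart without strand.

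Other genes of the Golgi and its tethers were lower more often than higher, with 2 of 20 tested genes called higher and 14 lower (median -0.46). With the offsets 5 were higher and 6 lower (median -0.03). Golga4 fell by 1.85 (SE 0.11) and Golgb1, which encodes giantin, by 1.72 (SE 0.14), both golgins that tether vesicles with transcripts of 7583 and 10847 bases. Their offset values were -0.35 for Golga4 and 0.21 for Golgb1. Golm2, the paralog of Golm1, is listed under its older symbol Casc4, and was not called, at 16.3 ± 3.0 CPM in cKO and 18.1 ± 1.16 CPM in cWT (log2 fold change -0.15, SE 0.14).

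Slc2a5 encodes GLUT5, a transporter of fructose that in the brain is best known from microglia. It had 437, 390 and 559 CPM in the cKO libraries, against 457, 494 and 523 CPM in the cWT libraries. The groups overlapped, and cKO replicate 2 was the lowest and cKO replicate 3 the highest of the 6. Slc2a5 averaged 462 ± 87.7 CPM in cKO and 492 ± 33.1 CPM in cWT (SD, n = 3 each) and was not called (log2 fold change -0.09, 95% interval -0.34 to 0.16, adjusted p = 0.52). Without cKO replicate 3 it was called lower, at -0.23 (adjusted p = 0.035), and without cKO replicate 2 the value was 0.034, so 1 library decides its call. Its offset value was 0.13 (adjusted p = 0.23).

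The other sugar transporters and fructose enzymes went both ways, with 6 of 17 tested genes higher and 5 lower (median 0.00). With the offsets 6 were higher and 2 lower (median -0.01). Khk, the kinase that takes fructose into metabolism, rose by 1.68 (SE 0.12, adjusted p = 6.1e-10), with 90.3 ± 11.8 CPM in cKO and 28.1 ± 3.41 CPM in cWT, and by 1.04 with the offsets. Akr1b3, the aldose reductase that starts the conversion of glucose to fructose, rose by 1.66 (SE 0.16), with an offset value of 0.63 that was not called. Slc2a1, the glucose transporter GLUT1, which endothelial cells of the brain also make in quantity, rose by 0.95 (SE 0.11, adjusted p = 2.9e-07), with 798 ± 91.5 CPM in cKO and 413 ± 25.5 CPM in cWT. GLUT1 stood at 1.26 with the offsets. Slc2a3, the transporter GLUT3, was not called (log2 fold change 0.17, SE 0.12) but was with the offsets, at 0.61, and Slc2a6 was called in neither (0.17, SE 0.22).

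Bin1 encodes a BAR-domain protein that bends membranes during endocytosis, lies in a locus linked to late-onset Alzheimer's disease in humans, and is made in several isoforms by several cell types of the brain. It had 626, 581 and 781 CPM in the cKO libraries, against 615, 598 and 637 CPM in the cWT libraries. Here too the groups overlapped, with cKO replicate 3 the highest. Bin1 averaged 663 ± 105 CPM in cKO and 617 ± 19.98 CPM in cWT (SD, n = 3 each) and was not called (log2 fold change 0.10, 95% interval -0.13 to 0.34, adjusted p = 0.41). Genes of like length had a median of 0.63, and 21.3% of them lay below Bin1. The offset value was -0.16 (adjusted p = 0.069). Counts per gene do not separate the isoforms, and 256 of the 4117 exonic bases of Bin1 are shared with a noncoding gene on the other strand.

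Among other genes of membrane bending and endocytosis, 7 of 24 tested genes were called higher and 14 lower (median -0.58), and 3 higher and 9 lower with the offsets (median -0.13). Cltc, the clathrin heavy chain, fell by 1.73 (SE 0.10, adjusted p = 3.8e-11), with 246 ± 7.39 CPM in cKO and 814 ± 37.5 CPM in cWT, and by 0.75 with the offsets. Synj1, a phosphatase that helps uncoat vesicles, fell by 1.56 (SE 0.10, offset value -0.32). Bin2, a paralog with a BAR domain typical of blood and microglial cells, fell by 0.61 (SE 0.15, offset value -1.01), with 171 ± 47.7 CPM in cKO and 262 ± 24.7 CPM in cWT. Bin3 rose by 0.55 (SE 0.10), and stood at -0.17 with the offsets. Amph was set aside for low counts.

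**Figure D2:**
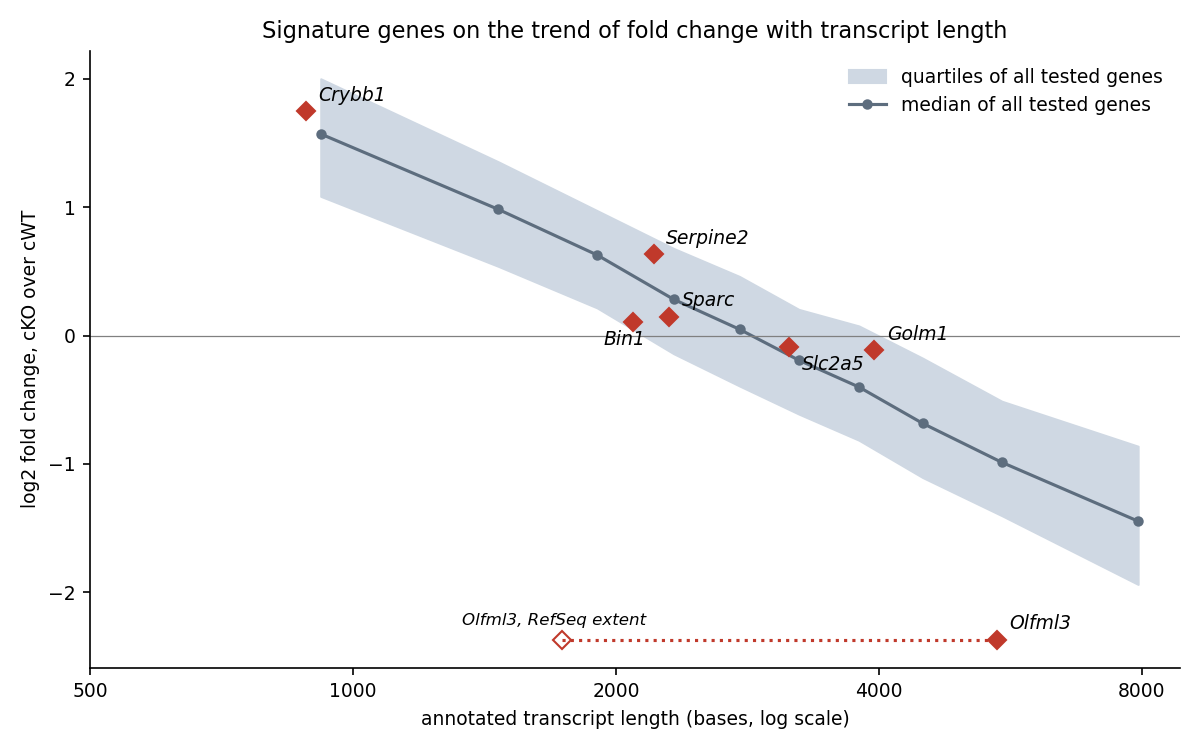
Log2 fold change of cKO over cWT (y axis) against annotated transcript length in bases (x axis, log scale), as the median (line) and quartiles (band) of 12983 tested genes in 10 groups of equal size by length, with the 7 genes as red diamonds and Olfml3 also at its RefSeq extent (open). Olfml3 lies below the band at either length, and the other 6 genes lie within or near it, Crybb1 at the short end at 1.75.

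The shortest transcript of the 7, Crybb1 at 882 bases, had the highest log2 fold change and the longest, Olfml3 at 5465 bases, the lowest. The share of its own length group that lay below each gene compares it with genes of like length. Serpine2 (72.6% of its group below), Golm1 (64.9%), Crybb1 (61.4%), Slc2a5 (57.7%) and Sparc (41.6%) lay in the middle of their groups. Bin1 (21.3%) lay lower, and Olfml3 (2.7%) near the bottom. With library size alone in place of TMM, the median of all genes moved to -0.42 and 33.1% of calls were higher, against 49.4% with TMM. Sparc (-0.25), Golm1 (-0.51), Slc2a5 (-0.49) and Bin1 (-0.29) all took lower values, the last 3 of which were then called lower, as were 50% of all tested genes. The directions of Olfml3, Crybb1 and Serpine2 held under each scaling and with the offsets.

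**Figure D3:**
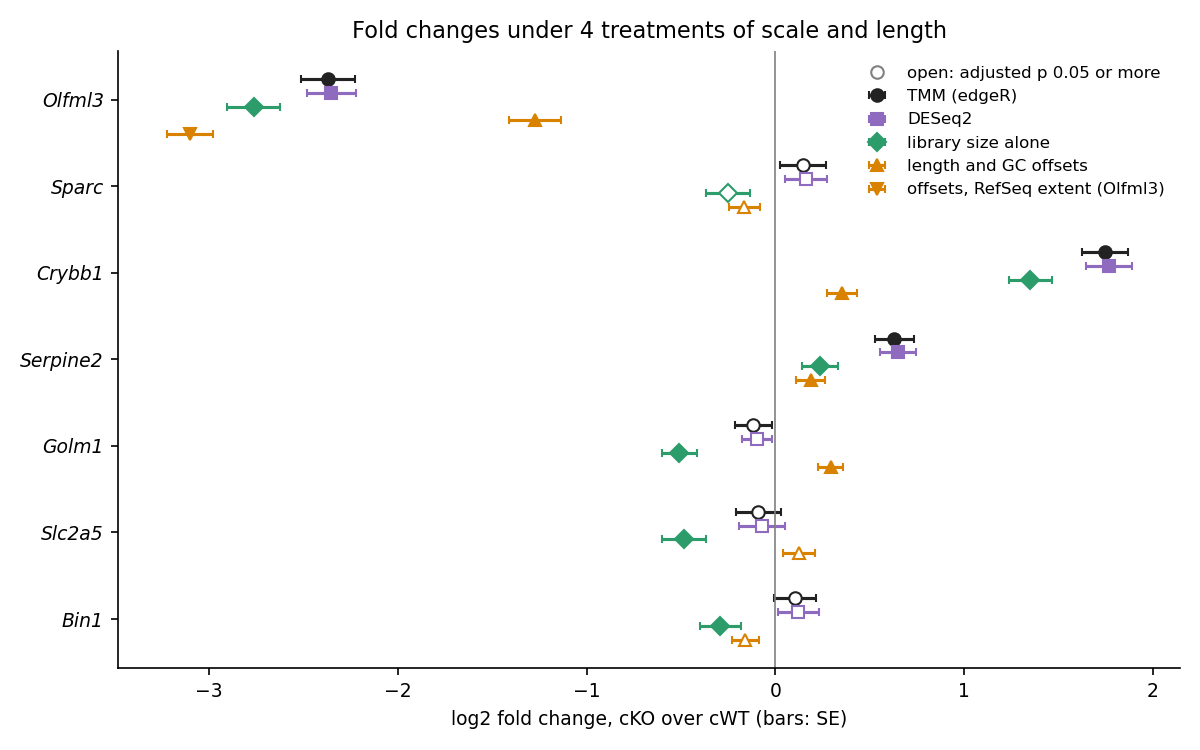
Log2 fold change of cKO over cWT with its SE for each gene under the TMM fit, DESeq2, library size alone and the length and GC offsets, with filled symbols where the adjusted p was under 0.05. Olfml3 stays below 0, and Crybb1 and Serpine2 stay above 0, under all 4, while Sparc, Golm1, Slc2a5 and Bin1 change sign between them.

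Ratios of these genes within a library need no scaling between libraries, but keep the trend with transcript length. The ratio of Olfml3 to Crybb1 counts was 0.486, 0.569 and 0.587 in the cKO libraries, against 8.83, 9.71 and 9.93 in the cWT libraries. It was 17.4-fold lower in cKO, with no overlap. With the GENCODE length of Olfml3, the medians of their length groups alone differ 5.88-fold in the same direction. Between the offset values the difference is then 3.09-fold. At the RefSeq extent of Olfml3 the medians lie closer, at 0.74 for genes like Olfml3 and 1.57 for those like Crybb1 (log2). The offset values lie further apart there, at -3.10 for Olfml3 against 0.35 for Crybb1. Which length applies was not tested. The ratio of Serpine2 to Slc2a5 was 1.44, 1.58 and 1.31 in cKO, against 0.901, 0.831 and 0.866 in cWT, also without overlap. Sparc and Bin1 kept a ratio of 4.96 ± 0.0784 in cKO and 4.82 ± 0.30 in cWT (SD, n = 3 each), and Golm1 and Slc2a5 one of 2.03 ± 0.367 in cKO and 2.03 ± 0.101 in cWT, both overlapping. The ratio of Sparc to Golm1 did not overlap between the groups (3.58 ± 0.567 in cKO and 2.99 ± 0.16 in cWT). The groups nearly touched, with cKO replicate 2 at 3.153 and cWT replicate 2 at 3.145, while cKO replicate 3 stood at 4.22.

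Together the 7 genes made up 0.602 ± 0.0789% of all counts in cKO and 0.842 ± 0.0476% in cWT (SD, n = 3 each). That difference rests on library size alone, since on the TMM scale their sums of 6184 to 7999 CPM in cKO and 6913 to 7733 CPM in cWT overlapped. Olfml3 supplied 4.65 ± 0.416% of their summed counts in cKO and 22.7 ± 0.775% in cWT. Sparc supplied 47.6 ± 1.02% in cKO and 40.5 ± 0.600% in cWT, and Crybb1 8.52 ± 0.707% in cKO and 2.39 ± 0.0677% in cWT. Golm1 and Slc2a5 held nearly equal shares, 13.5% and 6.66% in cKO and 13.6% and 6.69% in cWT.

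**Figure D4:**
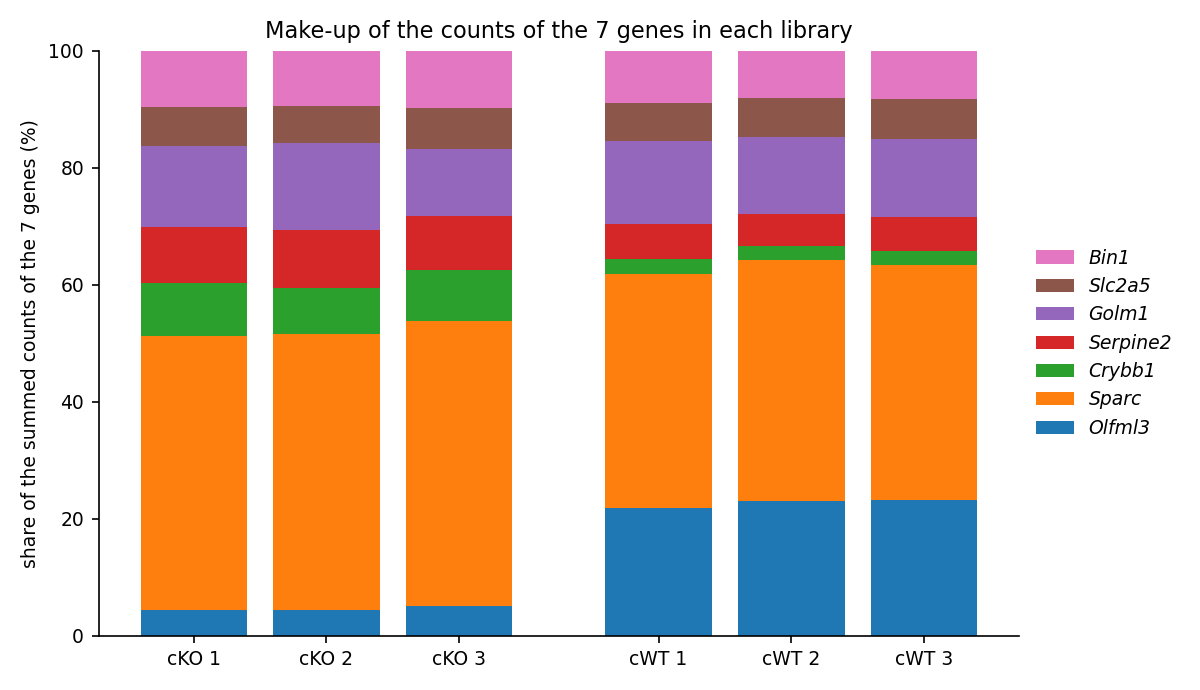
Share in percent of the summed counts of the 7 genes that each gene took, 1 bar per library, with the cKO libraries left of the cWT libraries. The Olfml3 segment is 4.65% on average in cKO and 22.7% in cWT, and the Crybb1 segment is 8.52% in cKO and 2.39% in cWT.

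Compared per kilobase of annotated transcript, the scale on which genes within a library can be set against each other, the order of levels changed between the genotypes. This scale keeps the trend of the fold change with transcript length, and the part of that trend in the change of order was not tested. In cKO the order was Sparc (1431 CPM per kilobase), Crybb1 (669), Bin1 (317), Serpine2 (298), Golm1 (232), Slc2a5 (146) and Olfml3 (59.2). In cWT it was Sparc (1293), Olfml3 (306), Bin1 (295), Golm1 (252), Crybb1 (199), Serpine2 (192) and Slc2a5 (156). Bin1 and Serpine2 overlapped in the cKO libraries, and in cWT so did Olfml3 with Bin1 and Crybb1 with Serpine2. The other neighbours in each order did not overlap. At its RefSeq extent Olfml3 would stand at 186 CPM per kilobase in cKO and 962 in cWT.

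By the SD relative to the mean, the cKO libraries differed among themselves more than the cWT libraries for 6 of the 7 genes. Golm1 was the exception, and in the SD itself Olfml3 also varied less in cKO (75.4 CPM) than in cWT (147 CPM). Replicate 3 was the highest cKO library for all but Golm1, and for 14 of 24 other homeostatic genes, against 37.9% of all tested genes. Its level over the mean of the other 2 cKO libraries was 1.46-fold for Olfml3, 1.35-fold for Slc2a5, 1.30-fold for Sparc and Crybb1, 1.29-fold for Bin1, 1.18-fold for Serpine2 and 1.01-fold for Golm1, where the median over all genes was 1.003-fold. Replicate 3 was also the deepest cKO library, and held the lowest summed level of neutrophil, monocyte and choroid plexus markers of the cKO group. The part of either in these differences was not tested.

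Over the 6 libraries, which share genotype as the main source of variation, Pearson correlations of log2 CPM were 0.99 between Crybb1 and Serpine2, 0.93 between Sparc and Bin1 and -0.94 between Olfml3 and Crybb1. By the same measure, the genes most like Olfml3 among 5387 well-expressed genes were Arid3a and Tlr9, both at 0.9999, but 1462 genes exceeded 0.95, so the likeness is shared with much of the transcriptome. For Crybb1 the closest were Plekho1 and Fam213b (1567 genes above 0.95), and for Serpine2 they were Rxrb and Maged1 (1035 genes). The 4 genes that were not called had few close followers. They were Was and Vps16 for Sparc (38 genes above 0.95), Sh3bp2 and Ss18 for Golm1 (26), Vasp and Abi3 for Slc2a5 (23), and Parvg and Neurl1a for Bin1 (14).

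Of 24 other homeostatic microglial genes, 9 were called higher and 12 lower, with a median of -0.18. Over all tested genes 35.6% were higher and 36.5% lower, so a split of this kind is not particular to the list. With the offsets 6 were higher and 11 lower (median -0.07). The 3 largest decreases were of transcription factor genes: Sall1, which maintains microglial identity, had 187 ± 18.6 CPM in cKO and 837 ± 76.5 CPM in cWT (log2 fold change -2.16, SE 0.11, offset value -1.16), Sall3 had 31.2 ± 4.83 CPM in cKO and 125 ± 10.02 CPM in cWT (offset value -0.42), and Mef2c fell by 1.38 (SE 0.10, offset value -1.63). The 3 largest increases were Cst3, the secreted protease inhibitor cystatin C, at 1.98 (SE 0.14, offset value 0.45), the lipid receptor gene Trem2 at 1.51 (SE 0.13, offset value 0.27), and Tmem119, whose locus carries the Cre, at 1.35 (SE 0.13, offset value 1.27). Olfml3 had the lowest log2 fold change of all 31 genes, and Crybb1 came second from the top after Cst3.

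**Figure D5:**
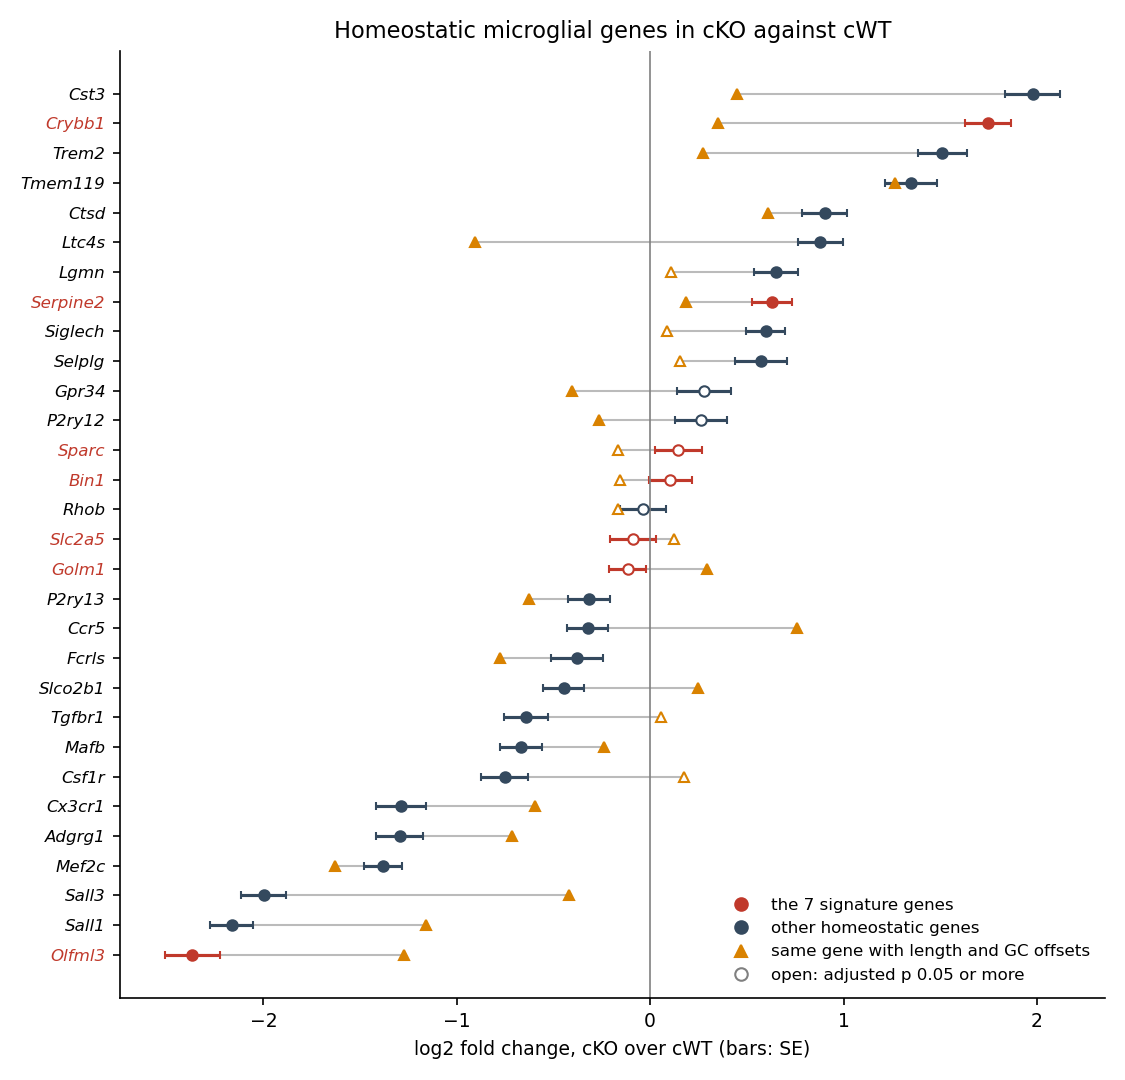
Log2 fold change of cKO over cWT with its SE (circles) and the value with the length and GC offsets (orange triangles) for the 7 genes (red) and 23 of the 24 other homeostatic microglial genes (dark), ordered by fold change; open symbols were not called. The 7 genes spread over the whole range, with Olfml3 at -2.37 lowest, Crybb1 at 1.75 near the top, and Sparc, Bin1, Slc2a5 and Golm1 near 0.

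The labelled cell type was plain in the libraries. The summed level of 8 defining microglial markers was 29036 to 32279 CPM in cKO and 30456 to 32390 CPM in cWT, with 3 of 8 called higher and 4 lower (1 higher and 5 lower with the offsets). Without the most abundant of the 8 the sums did not overlap, at 14190 to 15866 CPM in cKO and 20792 to 22405 CPM in cWT. Markers of other cells were also present, and none of them was at 0 in all libraries. Choroid plexus and ependymal markers, led by Ttr, summed to 10518 to 14191 CPM in cKO and 2183 to 2465 CPM in cWT, with 9 of 9 called higher (8 with the offsets). Neutrophil markers, led by S100a9, summed to 11075 to 15657 CPM in cKO and 3783 to 4432 CPM in cWT, with 5 of 6 higher, but 2 higher and 3 lower with the offsets. Monocyte markers, led by Chil3, summed to 1048 to 1350 CPM in cKO and 563 to 651 CPM in cWT, with 4 of 7 higher and 2 lower, but 2 higher and 4 lower with the offsets. Their part in the results on the 7 genes was not tested.

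For the cells that also make some of the 7 genes the summed levels were closer. Endothelial markers, led by Ly6c1, summed to 2137 to 2577 CPM in cKO and 1783 to 2156 CPM in cWT, with 3 of 12 higher and 7 lower (2 and 6 with the offsets), which stands beside the results on Sparc and Slc2a1. Without Ly6c1 the endothelial sums ranged lower in cKO, with an overlap, at 1363 to 1735 CPM in cKO and 1598 to 1927 CPM in cWT. Oligodendrocyte markers, led by Cnp, summed to 435 to 632 CPM in cKO and 348 to 359 CPM in cWT, with 7 of 10 higher and 1 lower, also with the offsets, which stands beside Bin1. Astrocyte markers, led by Slc1a3, summed to 384 to 627 CPM in cKO, highest in replicate 3, and 396 to 417 CPM in cWT, with 1 of 10 higher (5 with the offsets), which stands beside Serpine2 and Sparc. Mural markers, led by Acta2, summed to 418 to 483 CPM in cKO and 439 to 568 CPM in cWT. Of 9 tested, 3 were higher and 5 lower (1 and 3 with the offsets). Fibroblast markers, led by Igf2, summed to 103 to 124 CPM in cKO and 76.0 to 103 CPM in cWT. Of 8 tested, 5 were higher and 3 lower (1 and 0 with the offsets). Oligodendrocyte precursor markers, led by Cspg4, summed to 14.0 to 22.8 CPM in cKO and 33.4 to 42.5 CPM in cWT. Of 6 tested, 0 were higher and 2 lower (1 and 2 with the offsets). Without Cspg4 their sums overlapped, at 10.2 to 17.5 CPM in cKO and 12.2 to 13.1 CPM in cWT. Neuron markers, led by Stmn2, summed to 20.2 to 27.6 CPM in cKO and 14.3 to 17.1 CPM in cWT. Erythroid markers, led by Hba-a1, summed to 102 to 212 CPM in cKO and 114 to 163 CPM in cWT. Hbb-bs among them had 0 CPM in all cKO libraries and 17.9 ± 10.1 CPM in cWT. The other globin genes tested, Hbb-bt, Hba-a1 and Hba-a2, were present in both groups and were not called without the offsets. Hbb-bt had 18.6 ± 9.35 CPM in cKO and 14.5 ± 3.39 CPM in cWT. Beyond the labels, the genetic background of the groups was not compared. Border-associated macrophage markers, led by Mrc1, summed to 785 to 965 CPM in cKO and 808 to 1015 CPM in cWT. Of 8 tested, 5 were higher and 1, Mrc1, lower (3 higher and 2 lower with the offsets). Without Mrc1 their sums did not overlap, at 570 to 690 CPM in cKO and 405 to 497 CPM in cWT. The share of any of these cells in the counts of the 7 genes was not tested.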

How the data were processed

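RNA of brain microglia was sequenced in 3 cKO and 3 cWT libraries. The deposited table holds the authors' unscaled estimated counts. Per the submitters' processing notes, which give no order of steps, STAR 2.7.9a, RSEM, DESeq2 and the builds GRCm38 and mm10 were used. The authors' second deposited table gives a base mean (a scaled signal), log2 fold changes with standard errors, the Wald statistic (a score) and p-values, per the file headers. Here, counts were rounded and tested with edgeR 4.0.16 in R 4.3.3 (quasi-likelihood, two-sided, TMM, filterByExpr with a minimum count of 10), with Benjamini-Hochberg adjustment over 13490 genes and calls at an adjusted p under 0.05. CPM values carry TMM factors. Offsets came from loess (span 0.3, degree 1) on the length and GC content of GENCODE transcripts. The code was tested on simulated data. The 7 genes, the gene lists and the tests were chosen with earlier results of these data known. Named genes were the 7, set paralogs, the 3 largest increases and decreases of the homeostatic list, up to 2 called genes per family list of at least 2 in average log2 CPM, the top gene of each marker list, and 2 genes per member by likeness. Some genes that this rule takes are not reported here. Alternatives used DESeq2 1.42.0, limma-voom 3.58.1, other scalings and filters, a replicate block, and each replicate left out.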

Additional observations from a re-analysis of the deposited data

How the results depend on the processing

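The directions and calls of Olfml3, Crybb1 and Serpine2 held under every alternative run, with log2 fold changes without single replicates of -2.56 to -2.24, 1.63 to 1.89 and 0.56 to 0.69. With library size alone, 4 of the 7 genes were called lower (50% of all tested genes were): Olfml3, Golm1 (-0.51), Slc2a5 (-0.49) and Bin1 (-0.29). Sparc (-0.25) was not. With the length and GC offsets, values were -0.16 for Sparc, 0.29 for Golm1, 0.13 for Slc2a5 and -0.16 for Bin1. With the replicate block and the offsets, 3 genes were called lower (3495 of 12983 tested genes were): Olfml3 and, gaining a call, Sparc (-0.17) and Bin1 (-0.16). In that setting Golm1 (0.29) was called higher and Slc2a5 (0.12) was not called. Leaving out single replicates gave 1 to 2 genes called lower, where 4597 to 4875 of all tested genes were. Values then ran from -0.23 (without cKO replicate 3) to 0.034 (without cKO replicate 2) for Slc2a5. For Bin1 they ran from -0.014 (without cKO replicate 3) to 0.21. The cause of these shifts was not tested. Same-numbered libraries deviated together with correlations of 0.10, 0.03 and 0.09, low values but above those of differently numbered libraries (-0.106 to 0.015). The numbers were not taken as pairs, and these values do not settle whether they are. The replicate block alone called 9911 genes, against 9729 without it, and gave each of the 7 genes a smaller SE. The other values kept their side of the threshold. Counting depth limits none of the 7 genes, since the lowest count of any in a library was 2965 (Olfml3); the 3 libraries per group do.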
